A study of Sus scrofa with 22 samples.

Results

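Collagens are trimers of chains encoded by separate genes. The genes described are all those whose symbol in the deposited count files is COL, a number, A and a number. There were 43 of them among the 27376 genes counted for papillae, passage 1 organoids and the FGF10 experiment, and the same 43 among 29850 named genes for the CQ experiment. COL6A1, the partner of COL6A2, had no entry under that symbol and was not analysed here. RNA sequencing covered 22 libraries from pig in 6 groups. Foliate papillae, taste bud-bearing folds of the lateral tongue, gave 5 libraries, and organoids at passage 1 from the same 5 pigs gave 5 more. The other 12 organoid libraries formed 2 experiments of 3 against 3, one with and without FGF10 in the growth medium LPM, and one comparing LPM with CQ.

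All organoids had been grown in LPM in domes of basement membrane extract. For passage 1 and the FGF10 experiment the labels list, on a serum-free base with B27 and N21, EGF, FGF10 at 100 ng/ml, FGF2, R-Spondin-2, Noggin, SHH, Wnt3a, insulin, the ROCK inhibitor Y-27632, the p38 inhibitor SB202190, CHIR99021, prostaglandin E2, forskolin, N-acetyl-cysteine, nicotinamide and A-83-01 at 0.5 µM, an inhibitor of the TGF-beta type I receptor. A-83-01 was present in both arms of the FGF10 experiment. CQ cultures were started in LPM, switched to CQ on day 10 and taken on day 16 or 17. The composition of CQ, the day at which the LPM libraries beside it were taken, and the age, sex and breed of the pigs are not given in the sources used here, so culture age and medium cannot be told apart in that experiment. Papillae and organoids were extracted with different RNA kits, and kit and group cannot be told apart. Replicates of the FGF10 and CQ experiments are not said to come from separate animals or derivations, so their p-values measure the spread between these libraries.

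Fibril-forming collagens I, III and V are made mainly by fibroblasts and build the fibres of connective tissue, and fibril-associated collagens with interrupted triple helices (FACITs) decorate them. Collagen IV forms the sheet of the basement membrane, and collagens XV and XVIII bridge that sheet to the tissue beneath. Stratified epithelium is anchored from above by the transmembrane collagen XVII of the hemidesmosome and from below by the collagen VII of anchoring fibrils. Both are known products of basal keratinocytes.

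Levels are given as CPM, counts scaled to a library of 1e6, with TMM factors fitted within each comparison. The 3 comparisons were scaled separately, so levels set across them were not tested. Library totals, in units of 1e6 counts, were 17.04 to 20.71 in papillae, 21.79 to 27.77 in passage 1 organoids, 19.64 to 25.23 in the FGF10 experiment, 19.62 to 26.01 in LPM of the CQ experiment and 14.67 to 16.00 in CQ. In CQ the counts of genes with a mean of 10 to 30 varied between libraries with a median ratio of variance to mean of 12.6, against 1.13 to 4.87 in the other groups, so chains with few counts there are imprecise. Markers checked what the organoids held: all 8 epithelial markers were above 1 CPM in passage 1 organoids, while 6 of 8 fibroblast, 6 of 8 pericyte and smooth muscle, 4 of 8 endothelial, 7 of 8 Schwann cell and nerve, 8 of 8 skeletal muscle and 6 of 8 immune markers were below it. The proteoglycan DCN averaged 326 CPM in papillae and 0.0536 in organoids, and DPT had no count in any passage 1 organoid library. Summed fibroblast markers ranged from 442 to 1068 CPM in papillae and from 93.5 to 219.6 in organoids, where most of the sum was THY1, and without THY1 from 382 to 933 and from 5.09 to 12.0. Pericyte and smooth muscle markers summed to 1394 to 1917 CPM in papillae and 80.3 to 174 in organoids, and endothelial markers to 479 to 714 and 38.4 to 143, or without KDR, which was not called lower, to 452 to 685 and 20.4 to 31.8. The part of these cell types in the collagen differences was not tested. In these bulk libraries fewer cells of a type and less RNA per cell cannot be told apart.

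**Figure D1:**
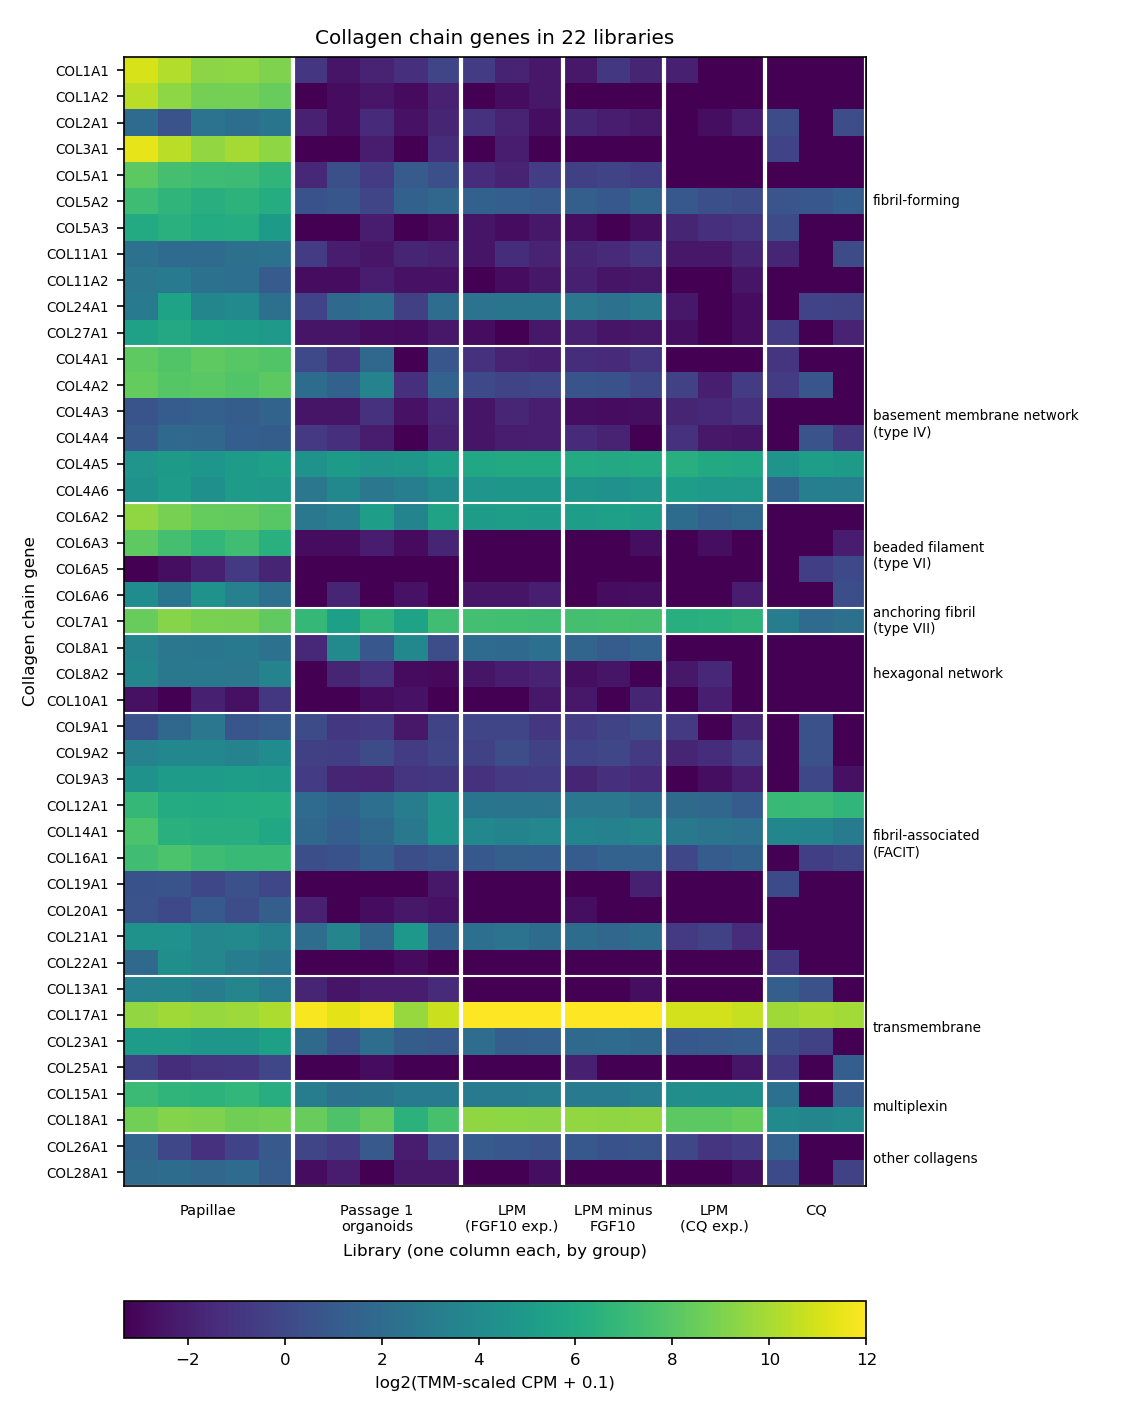
Level of each of the 43 collagen chain genes (rows, by class) in each of the 22 libraries (columns, by group), as log2(TMM-scaled CPM + 0.1). The fibril-forming chains COL1A1, COL1A2 and COL3A1 are bright in the 5 papilla columns and dark in all organoid columns, whereas COL17A1 is bright in all 22.

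The papillae carried nearly the whole family. At the level called kept here, 1 CPM or more in every library of a group, 37 of 43 chains were kept in papillae and 12 in passage 1 organoids. Those 12 were COL4A5, COL4A6, COL6A2, COL7A1, COL12A1, COL14A1, COL15A1, COL16A1, COL17A1, COL18A1, COL21A1 and COL23A1. Another 22 chains were below 1 CPM in every passage 1 library, and 9 passed it in some libraries only. Just inside the limit lay COL16A1, with a lowest library of 1.16 CPM, and COL23A1 with 1.56, and just outside lay COL5A2 with 0.836 and COL24A1 with 0.648. At 5 CPM in every library 7 were kept, COL4A5, COL4A6, COL6A2, COL7A1, COL15A1, COL17A1 and COL18A1.

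All 11 fibril-forming chains were lower in passage 1 organoids, with a median log2 fold change of -7.30. All except COL5A2 and COL24A1 passed the filter on low counts through the papillae alone and had to differ. Nothing is read from that count or median. In the test of passage 1 organoids against papillae, 40 chains passed the filter on low counts; 35 were called lower, 1 higher and 4 neither, with a median log2 fold change of -4.58. Over all 16311 genes tested, 67.5% were called, 32.4% higher and 35.1% lower, with a median of -0.01. A chain that passed the filter only through the papillae had to differ, so the count over the 40 describes them and carries no further test. For the same reason nothing is read from the adjusted p of such a chain, and its levels are given as description. Chains that also passed through the organoids were COL4A5, COL4A6, COL5A2, COL6A2, COL7A1, COL9A2, COL12A1, COL14A1, COL15A1, COL16A1, COL17A1, COL18A1, COL21A1, COL23A1 and COL24A1. Every other called chain passed through the papillae alone. Of the 40, 35 did not overlap between the groups. The share of all genes without overlap was not computed, so nothing is read from this count. COL1A1 (chr12:26379087-26397180, minus strand, the span of the gene on the pig assembly Sscrofa11.1, as for the positions that follow), the alpha1 chain of collagen I, stood at 2142, 1204, 652, 674 and 528 CPM in the papillae of pigs 1 to 5 and at 0.448, 0.082, 0.176, 0.341 and 0.821 CPM in their organoids. Every papilla was above every organoid library, and the papilla of pig 1, which also had the highest summed fibroblast markers, was highest. The fitted fall was 2659-fold (log2 fold change -11.38, SE 0.70, edgeR adjusted p = 2.38e-07). COL1A2, which supplies the other chain of collagen I, read 1380.0, 683, 449.9, 452 and 346 CPM in papillae and 0, 0.041, 0.088, 0.0341 and 0.164 in organoids (log2 fold change -13.13, SE 0.68, edgeR adjusted p = 6.52e-08). COL3A1, the homotrimeric collagen of loose connective tissue and vessel walls, read 2734, 1388, 745, 962 and 675 CPM in papillae and 0, 0, 0.132, 0 and 0.296 in organoids (log2 fold change -13.73, SE 0.87, edgeR adjusted p = 2.71e-07). Both again separated the groups without overlap, with organoid levels resting on a few counts each, and without the organoids of pig 5 the fitted changes were -13.81 for COL1A2 and -15.13 for COL3A1.

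Collagen V, which sets the diameter of collagen I fibrils, kept a trace. COL5A1 stood at 282, 180.2, 152, 143 and 104 CPM in papillae and at 0.244, 1.23, 0.572, 2.04 and 1.25 in organoids, a fall of 158-fold (log2 fold change -7.30, SE 0.51, edgeR adjusted p = 4.92e-07). COL5A2 stood at 150.3, 106, 79.1, 97.4 and 71.6 and at 1.34, 1.64, 0.836, 2.56 and 3.19 CPM, a fall of 52-fold (log2 fold change -5.70, SE 0.37, edgeR adjusted p = 3.26e-07). Papillae lay above organoids in every pig for both, and the order within the pair differed between the groups: in papillae COL5A1 was the higher chain per kilobase of exon, with a ratio to COL5A2 of 1.65 to 2.18, whereas organoids held 147 counts of COL5A1 and 264 of COL5A2 in all. The other fibril-forming chains averaged from 4.31 CPM (COL2A1, of cartilage) to 65.2 CPM (COL5A3) in papillae. In organoids COL2A1, COL5A3, COL11A1, COL11A2 and COL27A1 averaged 0.0330 to 0.230 CPM, and COL24A1 2.85 ± 2.01 CPM (SD, n = 5). Among them COL24A1 had the smallest fitted fall, 6.2-fold (edgeR adjusted p = 0.00693), and 3.61-fold without the papilla of pig 2 (0.0227). The fall of COL5A3 was 1798-fold, and 4333-fold without the organoids of pig 3, and that of COL11A1 20.1-fold, and 30.4-fold without those of pig 1.

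**Figure D2:**
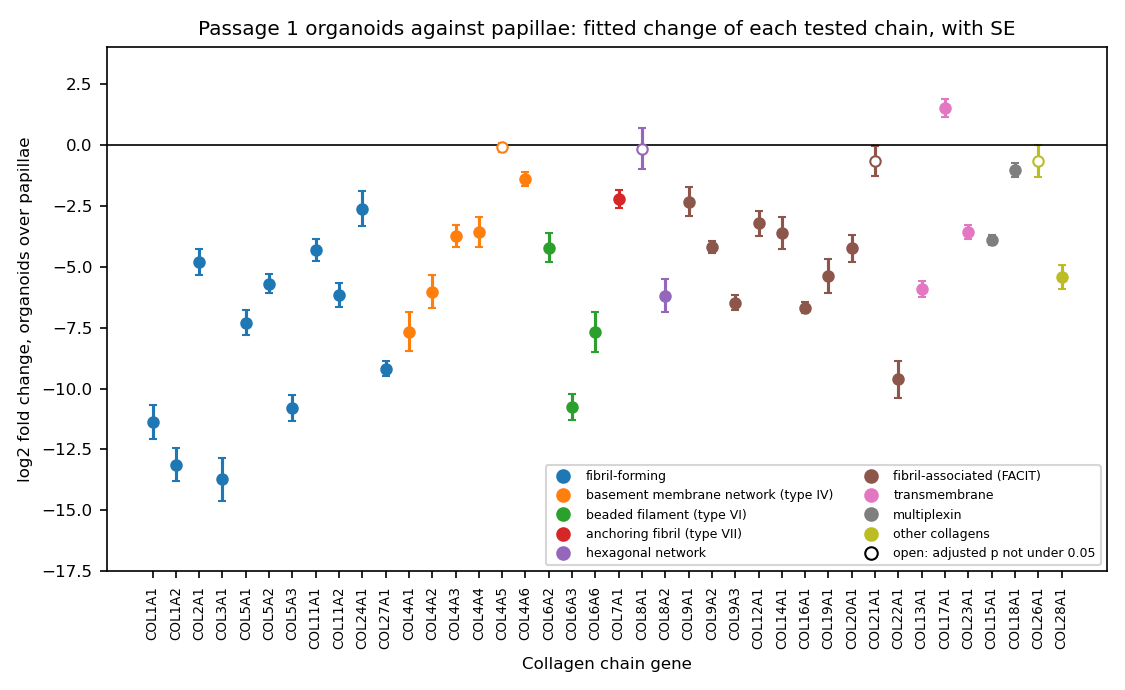
Fitted log2 fold change of passage 1 organoids over papillae for the 40 chains that passed the low-count filter, with SE bars, coloured by class; open symbols have an edgeR adjusted p of 0.05 or more. COL17A1 lies above 0 at 1.51, COL4A5 lies at -0.10, and the fibril-forming chains reach -13.73.

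Of the 6 type IV chains 5 were lower in organoids, with a median log2 fold change of -3.66. COL4A1, COL4A2, COL4A3 and COL4A4 passed the filter through the papillae alone. Nothing is read from that count, the median or the calls of these chains. In papillae the ubiquitous pair COL4A1 and COL4A2 was the most abundant of them, at 40.9 and 43.8 CPM per kilobase of exon against 4.83 for COL4A5 and 4.62 for COL4A6. COL4A1 stood at 299, 225, 291, 263 and 228 CPM in papillae and at 0.936, 0.41, 3.56, 0 and 1.61 in organoids, a fall of 203-fold (log2 fold change -7.66, SE 0.78, edgeR adjusted p = 7.02e-06). COL4A2 stood at 326, 249, 268, 234 and 283 CPM in papillae and at 4.11, 2.62, 11.3, 0.341 and 2.73 in organoids, a fall of 65.1-fold (log2 fold change -6.03, SE 0.69, edgeR adjusted p = 1.64e-05). For both chains the organoids of pig 3 were highest and those of pig 4 lowest among organoids, and without pig 3 organoids the falls were 344-fold and 110.4-fold. Per kilobase their ratio in papillae was 0.784 to 1.10, while organoids gave 163 counts of COL4A1 and 514 of COL4A2. The annotated ends of these head-to-head genes overlap by 525 bp and strand was not used in counting, so a read there counted for both.

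The pair COL4A5 and COL4A6, which lie head to head on chromosome X and combine in the basement membranes of epithelium and smooth muscle, remained. The annotated ends of this pair lie 207898 bp apart. COL4A5 (chrX:88958837-89183306, plus strand) stood at 25.8, 32, 26.9, 33.5 and 40.8 CPM in papillae and at 23.7, 32.4, 24.2, 27.1 and 40.4 in organoids. The ranges overlapped almost fully, and no change was called (log2 fold change -0.10, SE 0.18, edgeR adjusted p = 0.622). With library size as the only scaling, which moved the median over all genes from -0.01 to 0.28, the direction of COL4A5 turned to 0.19, again with no call. COL4A6 (chrX:88634925-88750938, minus strand) stood at 22.6, 34.3, 20.1, 33.2 and 30.2 CPM in papillae and at 6.67, 14, 6.73, 9.34 and 15.9 in organoids. It was lower in the organoids of all 5 pigs, by 2.67-fold (log2 fold change -1.42, SE 0.28, edgeR adjusted p = 0.00081). Per kilobase, COL4A5 lay on either side of its partner in papillae, at a ratio of 0.861 to 1.25, and above it in organoids, at a ratio of 2.14 to 3.32, so the 2 sets of ratios did not overlap. COL4A3 and COL4A4, the kidney-type chains, were low in papillae, at 1.48, 2.06, 2.48, 2.16 and 2.88 CPM for COL4A3 and 1.85, 3.71, 3.25, 2.29 and 2.21 for COL4A4. In organoids COL4A3 stood at 0.0814, 0.082, 0.352, 0.0682 and 0.23 CPM and COL4A4 at 0.488, 0.328, 0.132, 0 and 0.164. Both passed the filter through the papillae alone, so nothing is read from their calls as lower (adjusted p = 2.67e-05 and 0.000316 by edgeR). Their annotated ends overlap by 663 bp, so reads there also counted for both.

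COL17A1 was the chain that rose. It encodes the transmembrane collagen XVII, which links keratin-bound hemidesmosomes to laminin in the basement membrane (chr14:114959404-115007734, minus strand). In the papillae of pigs 1 to 5 it stood at 746, 909, 794, 867 and 1087 CPM, and in their organoids at 3657, 2684, 3599, 798 and 1776 CPM. Organoids were above the papilla of the same pig in 4 of 5 pigs, by 4.90, 2.95, 4.53 and 1.63 times in pigs 1, 2, 3 and 5, and below it in pig 4, at 0.921 times, so the groups overlapped through the organoids of pig 4. The fitted rise was 2.84-fold (log2 fold change 1.51, SE 0.36, edgeR adjusted p = 0.00296). Its share of all collagen transcripts changed more than its level. Taking each chain as CPM per kilobase of exon, COL17A1 made up 13.7 ± 5.38% of the summed collagen signal in papillae, but 84.8 ± 5.94% in organoids of passage 1 (SD, n = 5 each), with 6.51 to 21.3% in the one and 76.7 to 89.5% in the other. The share of COL1A1, COL1A2 and COL3A1 together went from 44.2 ± 10.9% to 0.0244 ± 0.0237%. The 12 kept chains, picked by their level in these same organoids, held 39.3% of the signal in papillae and 98.9% in organoids. The high organoid share follows in part from that choice. The sum itself was 860.3 to 1935 CPM per kilobase in papillae and 176 to 693 in organoids.

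**Figure D3:**
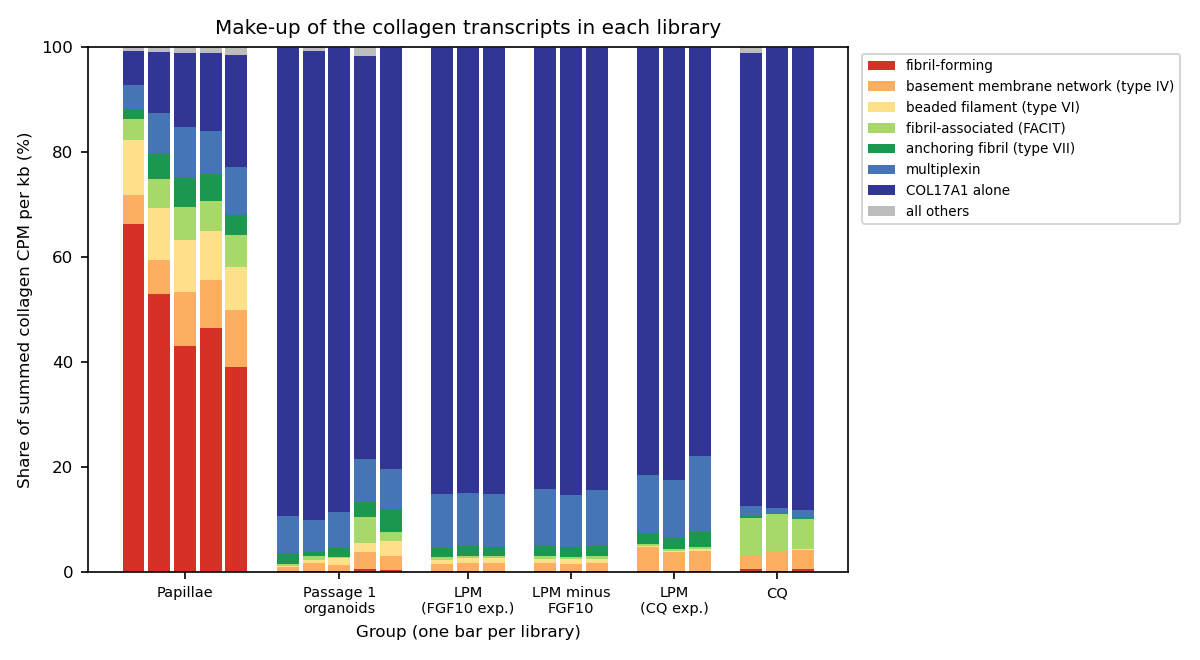
Share of summed collagen CPM per kilobase (vertical axis, %) by class in each library (1 bar each), with COL17A1 drawn apart from its class. Fibril-forming chains fill 39.0 to 66.3% of the papilla bars, and COL17A1 fills at least 76.7% of every organoid bar.

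COL7A1 and COL18A1 stayed abundant but lower than in papillae. COL7A1 (chr13:31262750-31295112, minus strand), the single chain of the anchoring fibrils, stood at 342, 584, 478, 462 and 306 CPM in papillae and at 118, 40.5, 106, 47.1 and 155 in organoids. All organoid libraries were below all papillae, the lowest being those of pigs 2 and 4. The fall was 4.66-fold (log2 fold change -2.22, SE 0.37, edgeR adjusted p = 0.000255). COL18A1 (chr13:207907835-207984082, plus strand), the basement membrane proteoglycan that yields endostatin, stood at 426, 577, 521, 415 and 445 CPM in papillae and at 348, 208, 322, 91.2 and 189.9 in organoids. Here too the groups did not overlap, and the organoids of pig 4 were lowest. The fall was 2.06-fold (log2 fold change -1.04, SE 0.30, edgeR adjusted p = 0.00977). Its relative COL15A1, best known from the outer face of vessel and muscle basement membranes, stood at 141, 104, 95.2, 115 and 75.9 CPM in papillae and at 8.42, 5.33, 5.76, 7.77 and 8.28 in organoids, a fall of 14.9-fold (log2 fold change -3.90, SE 0.21, edgeR adjusted p = 7.8e-08). COL17A1, COL18A1 and COL7A1 together held 24.0 ± 7.82% of the length-scaled signal in papillae and 94.0 ± 4.57% in organoids (SD, n = 5 each).

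Collagen VI, the beaded filament around cells and basement membranes, kept 1 of its chains. COL6A2, on an unplaced scaffold, stood at 708, 469.9, 333, 317 and 258 CPM in papillae and at 6.88, 9.14, 38.4, 12.2 and 44.5 in organoids, highest in the organoids of pigs 3 and 5. The groups did not overlap, and the fall was 18.8-fold (log2 fold change -4.23, SE 0.58, edgeR adjusted p = 6.64e-05). COL6A3, needed to complete the usual heterotrimer, stood at 292, 182, 114, 155 and 82.9 CPM in papillae and at 0.0407, 0.041, 0.132, 0.0341 and 0.197 in organoids, a fall of 1709-fold (log2 fold change -10.74, SE 0.53, edgeR adjusted p = 4.69e-08). In counts, the 5 organoid libraries held 2976 of COL6A2 and 12 of COL6A3, whereas in papillae COL6A2 exceeded COL6A3 by 4.89 to 7.42 times per kilobase. COL6A6 fell from 12.3 ± 7.56 CPM (SD, n = 5) to 0.0546 CPM (edgeR adjusted p = 9.93e-06), a 208-fold fall that was 502-fold without the organoids of pig 2. COL6A5 did not pass the filter, with 15 counts over all papillae and none over all organoids, which is at least 7.60-fold lower against a floor of 3 counts over the group.

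Several FACITs were kept at a low level. COL12A1 (chr1:90744409-90875127, plus strand), which coats collagen I fibrils under tension, stood at 118, 68, 67.1, 69.2 and 71.5 CPM in papillae and at 3.99, 2.95, 4.75, 8.93 and 21.1 in organoids. COL14A1, its close relative, stood at 199, 86.3, 75.7, 75.4 and 57.4 CPM in papillae and at 3.38, 2.34, 3.34, 6.82 and 23.5 in organoids. For both chains pig 1 was highest among papillae and pig 5 among organoids, with no overlap between the groups. The falls were 9.39-fold for COL12A1 (log2 fold change -3.23, SE 0.50, edgeR adjusted p = 0.000163) and 12.4-fold for COL14A1 (log2 fold change -3.64, SE 0.66, edgeR adjusted p = 0.000499). Without the organoids of pig 5 they were 15.04-fold and 24.5-fold. Markers of fibroblasts without THY1 summed to 9.20 CPM in the organoids of pig 5, within the range of the other 4 pigs, while the endothelial markers other than KDR summed to 31.8 CPM there against 20.4 to 23.2 in the others, and KDR stood at 111 CPM against 17.7 to 41.6. Their part in the COL12A1 and COL14A1 levels was not tested. COL16A1, another fibril-associated chain, fell 103-fold, from 154 ± 27.9 CPM (SD, n = 5) to 1.5 ± 0.464 CPM (SD, n = 5) (edgeR adjusted p = 6.3e-09). The collagen IX chains fell by 5.04-fold (COL9A1), 18.6-fold (COL9A2) and 89.7-fold (COL9A3), to means of 0.356 to 0.729 CPM. COL20A1 fell from 1.56 to 0.0749 CPM (edgeR adjusted p = 3.46e-05). COL22A1, known from tissue junctions such as the myotendinous one, had 956 counts over the papillae and 1 over the organoids, a ratio of 1453 (exact 95% interval 260.2 to 57455, counting error only). COL19A1 had 102 and 3 counts, a ratio of 51.7 (17.2 to 255).

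COL21A1 and COL8A1 varied among pigs. COL21A1, a vessel-wall FACIT, stood at 22, 21.6, 13.4, 14.6 and 10.7 CPM in papillae and at 4.35, 12.6, 3.21, 28.7 and 2.63 in organoids. COL8A1, of the hexagonal lattices of corneal and vascular basement membranes, stood at 11.3, 6.71, 6.49, 7.31 and 5.36 CPM in papillae and at 0.244, 15.8, 1.72, 14.3 and 1.12 in organoids. Both were high in the organoids of pigs 2 and 4 and low in the other 3, and both groups overlapped. Neither was called (0.338 for COL21A1 and 0.874 for COL8A1, edgeR adjusted p). Without the organoids of pig 4, COL21A1 was called lower, with a log2 fold change of -1.52 (edgeR adjusted p = 0.0123). COL8A2 fell 73-fold, from 9.03 ± 3.02 CPM (SD, n = 5) (edgeR adjusted p = 1.05e-05; 126-fold without the organoids of pig 3), and COL10A1, of growth plate cartilage, was at or below 0.469 CPM in every papilla. COL26A1 was the remaining chain with no call, at 0.355 to 3.09 CPM in papillae and 0.136 to 1.8 in organoids. COL28A1, associated with peripheral nerve, fell 43.1-fold from 3.47 ± 0.864 CPM (SD, n = 5) (edgeR adjusted p = 2.57e-06). Of the other transmembrane collagens, COL13A1 fell 60.1-fold to 0.163 CPM (edgeR adjusted p = 1.01e-07) and COL23A1 12-fold to 2.75 ± 1.26 CPM (SD, n = 5) (edgeR adjusted p = 2e-06). COL25A1 had 45 counts over the papillae and 1 over the organoids.

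Counts of the 40 tested chains called lower and higher stayed at 35 and 1, with the same 35 lower, under DESeq2, another scaling, library size alone and the pig as a block. With library size alone the share of called genes that were higher in organoids, over all genes, was 59.6% in place of 48.0%.

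Genes that process collagen were called in both directions, in shares to be read beside the 67.5% called over all genes (32.4% higher and 35.1% lower). A gene that passed the filter through only the papillae or only the organoids had to differ, and nothing is read from such a call. Of 14 prolyl and lysyl hydroxylases and glycosyltransferases, 6 were higher in organoids and 4 lower, with a median log2 fold change of 0.42. P4HA1, a catalytic subunit of prolyl 4-hydroxylase, rose from 15.4 ± 1.44 to 130.5 ± 53.5 CPM (SD, n = 5 each; edgeR adjusted p = 1.78e-06). PLOD1, a lysyl hydroxylase, rose from 42 ± 7.83 to 231 ± 109 CPM (edgeR adjusted p = 3.3e-05). P3H4, a partner of prolyl 3-hydroxylation complexes, fell from 40.5 ± 3.34 to 6.82 ± 1.81 CPM (edgeR adjusted p = 7.39e-07). COLGALT2, a collagen galactosyltransferase, fell from 2.66 ± 0.866 to 0.00657 CPM. It passed the filter through papillae alone, so nothing is read from its call. Of 9 chaperones and export factors 1 rose and 3 fell (median -0.13). SERPINH1, the collagen-specific chaperone HSP47, fell 8.91-fold from 171 ± 21.6 CPM (SD, n = 5) (edgeR adjusted p = 1.75e-05), FKBP10 fell 27.6-fold (edgeR adjusted p = 8.03e-07), and KLHL12, of large COPII carriers, was 1.19-fold higher (edgeR adjusted p = 0.0493), a call lost with the pig as a block (0.1065).

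Among 13 procollagen proteinases and crosslinking enzymes, 3 rose and 9 fell, with a median log2 fold change of -1.89. The N-proteinases ADAMTS2 and ADAMTS14 fell from 25.6 to 0.12 CPM and from 3.4 to 0.0232 CPM. Both passed the filter through papillae alone, so nothing is read from their calls. LOXL2, a lysyl oxidase, rose 3.3-fold to 62 ± 23.5 CPM (SD, n = 5) (edgeR adjusted p = 0.000165). TLL2 rose to 3.54 ± 3.15 CPM (SD, n = 5), but it passed the filter through organoids alone, so nothing is read from its call. Of 8 collagen receptors 3 rose and 4 fell (median 0.21): the integrin chains ITGB1 and ITGA2 rose 2.93-fold and 4.59-fold, while the endocytic receptor MRC2 fell 44.6-fold and ITGA1 10.4-fold (edgeR adjusted p = 1.34e-06, 2.57e-06, 2.74e-07 and 5.3e-06). Of the 8 partners of collagens XVII and VII in the hemidesmosome and anchoring complex, 5 rose and 3 fell (median 0.98). LAMB3, a laminin chain of the anchoring complex, rose 4.33-fold to 471 ± 122 CPM (SD, n = 5) (edgeR adjusted p = 6.94e-06). The plakins PLEC and DST, which tie keratin to the plaque, fell 1.82-fold and 1.9-fold (edgeR adjusted p = 0.000512 and 0.00427). Of 8 other basement membrane components, with a median of -1.18, 1 rose, the proteoglycan AGRN (1.62-fold, edgeR adjusted p = 0.00272), and 4 fell. Among the 4, the linker NID1 fell from 27.6 to 0.0242 CPM and the crosslinking peroxidase PXDN from 46.3 to 0.283 CPM. Both passed the filter through papillae alone, so nothing is read from their calls.

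The organoids of the other experiments carried a like set of chains. With FGF10 and without it 16 chains each were kept at 1 CPM, in LPM of the CQ experiment 11, and in CQ 8. Across passage 1, both FGF10 groups and the LPM group of the CQ experiment 10 chains were kept, and 7 in all 5 organoid groups: COL4A5, COL4A6, COL7A1, COL12A1, COL14A1, COL17A1 and COL18A1. COL17A1 was the first by length-scaled signal in each, with 84.9 ± 0.0731% and 84.5 ± 0.665% in LPM and LPM without FGF10, 80.5 ± 2.41% in LPM of the CQ experiment and 87.3 ± 0.812% in CQ (SD, n = 3 each). COL18A1 came second in 4 of the 5 groups, at 6.86% in passage 1, 9.99% and 10.4% in the FGF10 experiment and 11.2% in LPM of the CQ experiment.

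**Figure D4:**
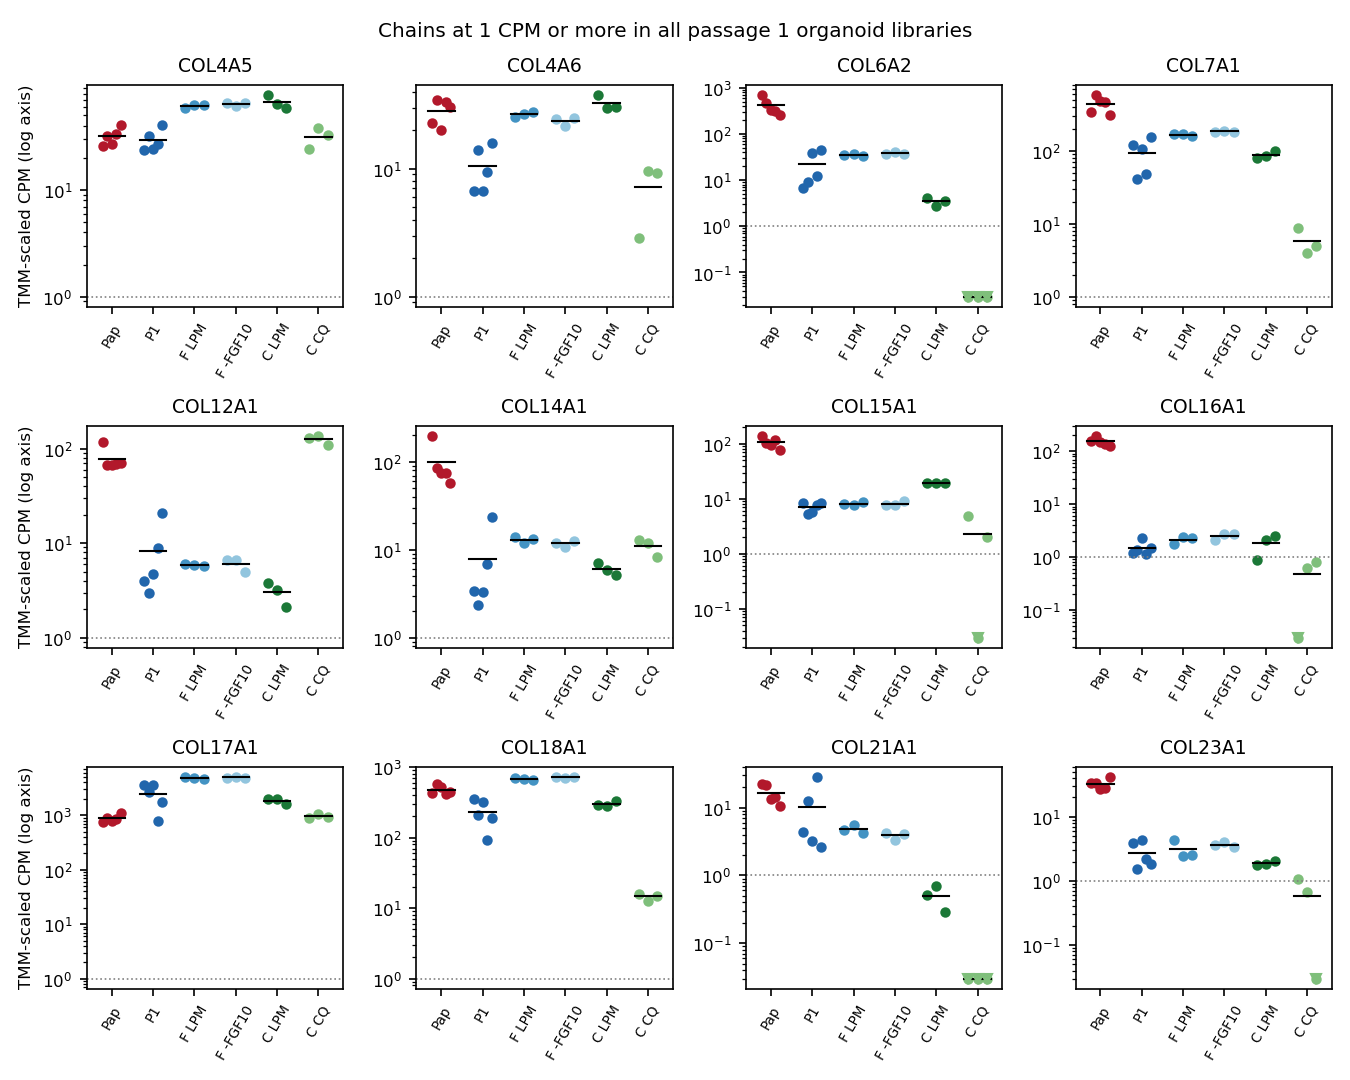
TMM-scaled CPM (log axis) of the 12 chains kept in passage 1 organoids, 1 point per library, black lines at group means, dotted line at 1 CPM; triangles at the bottom are libraries with 0 counts. Groups are papillae (Pap), passage 1 organoids (P1), LPM and LPM minus FGF10 (F), and LPM and CQ of the other experiment (C), scaled within each pair. COL12A1 lies at 109 to 138 CPM in CQ and at 2.11 to 3.78 in the LPM libraries beside it, while COL18A1 and COL7A1 move the other way.

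Without FGF10, a ligand of the epithelial receptor FGFR2b, the single chain that passed the test was COL7A1. Of 20 tested chains 1 was called higher and none lower by edgeR, against 1.78% of 14262 genes (0.582% higher and 1.20% lower). At an unadjusted p under 0.05 there were 3 higher and 3 lower, and DESeq2 also called none lower. The median log2 fold change over the 20 was 0.04, beside 0.00 over all genes tested. COL7A1 stood at 169, 167 and 159 CPM with FGF10 and at 180.1, 187 and 182 without it. The groups did not overlap, and the rise was 1.11-fold (log2 fold change 0.15, SE 0.04, edgeR adjusted p = 0.0427). That call was lost when any of 5 of the 6 libraries was left out in turn, with an adjusted p of 0.0748 to 0.139, and with the replicate number as a block (0.0572).

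The most abundant chains did not pass the test. COL17A1 stood at 5009, 4832 and 4727 CPM with FGF10 and at 4835, 5130.1 and 4902 without it (log2 fold change 0.03, SE 0.04, edgeR adjusted p = 0.85). COL18A1 stood at 704, 672 and 654 and at 734, 696 and 729 CPM (log2 fold change 0.09, SE 0.04, edgeR adjusted p = 0.348). The groups overlapped for both. COL4A5 averaged 61.8 ± 2.28 and 63.9 ± 1.98 CPM (SD, n = 3 each; edgeR adjusted p = 0.771). COL4A6 stood at 25.5, 27 and 27.7 CPM with FGF10 and 24.6, 21.5 and 24.9 without it, groups that did not overlap (log2 fold change -0.18, SE 0.07, edgeR adjusted p = 0.276). COL8A1, at 4.02, 3.65 and 4.7 against 3.14, 2.09 and 2.77 CPM, also did not overlap and missed the threshold (log2 fold change -0.63, SE 0.18, edgeR adjusted p = 0.0824), which it passed when no filter on low counts was used (0.0167). COL1A1 stood at 0.522, 0.172 and 0.0959 CPM with FGF10 and 0.0998, 0.469 and 0.201 without it, and COL3A1 had counts in 1 of the 6 libraries. The type V chains were low in both, COL5A1 at 0.281, 0.172 and 0.575 against 0.648, 0.768 and 0.604 CPM with no overlap (edgeR adjusted p = 0.35) and COL5A2 at 1.92 to 2.57 against 1.75 to 2.82 (edgeR adjusted p = 0.9997). COL6A2 stood at 34.2, 36.9 and 33.9 and at 36.2, 40.4 and 36.7 CPM (edgeR adjusted p = 0.479), while COL6A3 had no count with FGF10 and 1 without it. COL12A1, COL14A1 and COL15A1 averaged 5.93, 13.1 and 8.15 CPM with FGF10 and 6.09, 11.8 and 8.13 without it, with edgeR adjusted p of 0.956, 0.574 and 0.995. Among the processing and partner lists 1 gene was called, of 9 tested chaperones and export factors, beside 1.78% of all genes. None was called of 13 hydroxylases and glycosyltransferases, 7 proteinases and crosslinking enzymes, 8 receptors, 8 hemidesmosome partners and 6 other basement membrane components. The called gene, the transcription factor CREB3L1, fell from 46 ± 4.04 to 38.3 ± 3.64 CPM, with overlap between the groups (SD, n = 3 each; edgeR adjusted p = 0.0398). The fibroblast marker THY1 also fell, from 132 ± 3.26 to 103 ± 6.54 CPM (SD, n = 3 each; edgeR adjusted p = 2.35e-05), while DCN and LUM had no count in either arm.

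In CQ 2 of 12 tested chains were higher than in LPM, COL12A1 and COL14A1, and 7 lower, COL4A5, COL4A6, COL6A2, COL7A1, COL15A1, COL17A1 and COL18A1. Of the 7, COL6A2 had no count in CQ and COL15A1 none in CQ library 2. Both passed the filter through LPM alone, so nothing is read from their calls. Among 13827 genes tested 47.9% were called, 23.1% higher and 24.8% lower. The median log2 fold change was -1.80 over the 12 chains, the same with COL6A2 at its bound, and -0.07 over all genes. The median of the chains lay between COL23A1 at -1.69 and COL16A1 at -1.92, which also passed the filter through LPM alone. Nothing is read from that median. COL12A1 stood at 3.78, 3.19 and 2.11 CPM in LPM and at 132, 138 and 109 in CQ. All CQ libraries were far above all LPM libraries, by 42-fold (log2 fold change 5.39, SE 0.22, edgeR adjusted p = 4.79e-07). COL12A1 thereby became the second chain of CQ cultures by length-scaled signal, with 5.64% of it. COL14A1 stood at 7.15, 5.93 and 5.11 CPM in LPM and at 12.8, 12.1 and 8.21 in CQ, with no overlap (1.82-fold, log2 fold change 0.87, SE 0.29, edgeR adjusted p = 0.0334). Its call was lost without any 1 of the 3 LPM libraries or of CQ libraries 1 and 2 (0.0645 to 0.119), with the replicate number as a block (0.0532) and with no filter on low counts (0.0701).

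The anchoring and basement membrane chains were lower in CQ. COL18A1 stood at 286, 284 and 335 CPM in LPM and at 16.1, 12.8 and 15 in CQ, 20.6-fold lower (log2 fold change -4.37, SE 0.14, edgeR adjusted p = 1.47e-07). COL7A1 stood at 80.1, 83.5 and 98 CPM in LPM and at 8.74, 3.97 and 4.87 in CQ, 14.9-fold lower (log2 fold change -3.90, SE 0.27, edgeR adjusted p = 7.2e-06). COL17A1 stood at 1949, 1956 and 1644 CPM in LPM and at 906, 1057 and 921 in CQ, 1.92-fold lower (log2 fold change -0.94, SE 0.10, edgeR adjusted p = 0.000114). None of the 3 chains overlapped between media, and COL17A1 had the smallest difference of the 3. COL4A5 stood at 78.5, 63.4 and 58.9 CPM in LPM and at 24.4, 38.1 and 32.7 in CQ (2.11-fold lower, log2 fold change -1.07, SE 0.19, edgeR adjusted p = 0.00146). COL4A6 stood at 37.9, 29.6 and 30.3 CPM in LPM and at 2.89, 9.64 and 9.16 in CQ (4.49-fold lower, log2 fold change -2.17, SE 0.38, edgeR adjusted p = 0.0015). Their ratio per kilobase was 1.79 to 1.98 in LPM and 3.30 to 7.80 in CQ, where CQ library 1 had the least COL4A6. COL15A1 stood at 19.1, 19.6 and 19.1 CPM in LPM and at 4.78, 0 and 2.02 in CQ (8.56-fold lower, log2 fold change -3.10, SE 0.83, edgeR adjusted p = 0.0136; 0.0796 by DESeq2), and 19.3-fold lower without CQ library 1. COL15A1 passed the filter through LPM alone, so nothing is read from its call. COL6A2 stood at 4.14, 2.75 and 3.45 CPM in LPM, 222 counts in all, and had no count in CQ. It passed the filter through LPM alone, so its call is not read and the levels are given as description. With a floor of 37.8 counts over the CQ group, 3 times its ratio of variance to mean and chosen after the values were seen, COL6A2 was at least 4.27-fold lower. Beside these falls endothelial markers summed to 23.4 to 29.5 CPM in LPM and 2.83 to 5.81 in CQ, or without KDR to 16.6 to 19.5 and 2.83 to 5.81, and their part was not tested.

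**Figure D5:**
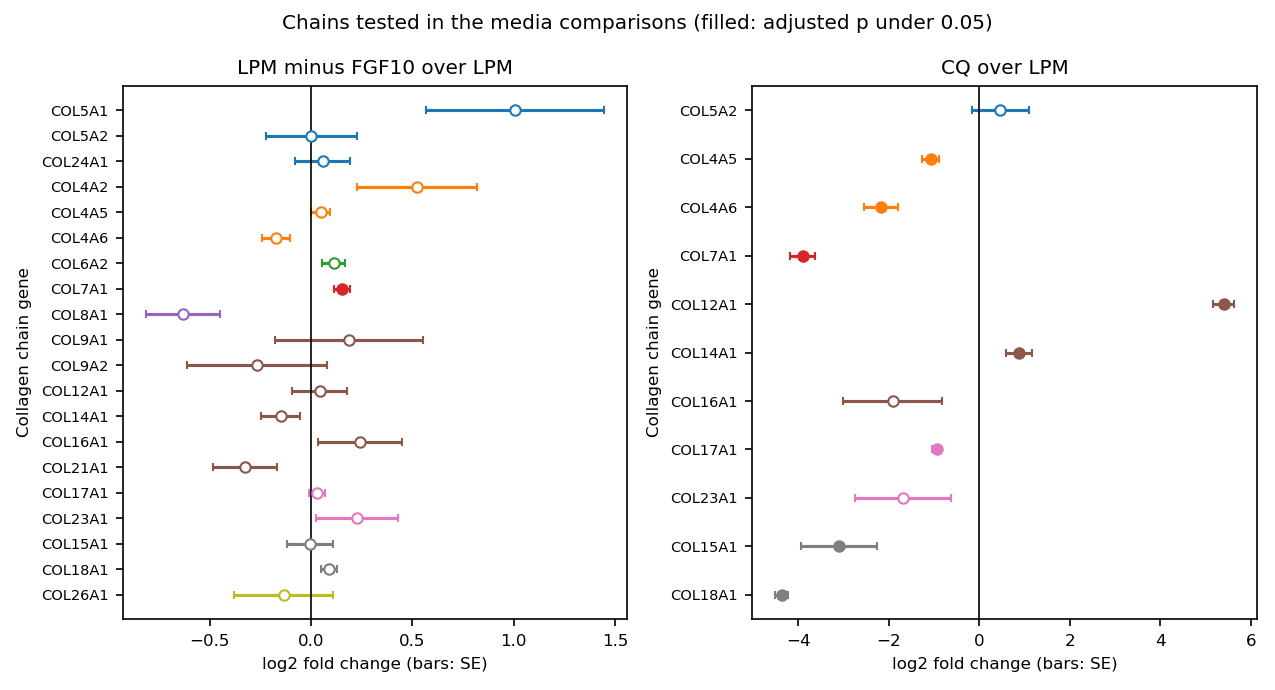
Fitted log2 fold change with SE bars of the chains tested in LPM minus FGF10 over LPM (left, 20 chains) and in CQ over LPM (right, 11 chains; COL6A2, with no count in CQ, is not drawn). Filled symbols have an edgeR adjusted p under 0.05. The scales differ: COL8A1 lies lowest on the left at -0.63, and the right panel runs from COL18A1 at -4.37 to COL12A1 at 5.39.

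The main chains of collagens I and III were at or near 0 counts in both media. COL1A1 had 3 counts over LPM and none over CQ, COL1A2 none in either, and COL3A1 none over LPM and 11 over CQ, all in 1 library. COL4A1 had none over LPM and 6 over CQ, also in 1 library, and COL4A2 stood at 0.538, 1.59 and 0 CPM beside 0.664, 0.147 and 0.527 in LPM. The CQ experiment was counted against another gene annotation, in which COL5A1 and COL8A1 had the same span, strand and exon length as before. SERPINH1, COL5A1 and COL8A1 were listed at 0 in all 6 libraries, LPM included, and the reason was not tested. In LPM of the FGF10 experiment the same genes averaged 18.6, 0.343 and 4.12 CPM, so a 0 in both media is given as listed and is not read as a loss. COL5A2 averaged 1.35 ± 0.339 CPM in LPM and 1.86 ± 0.418 in CQ (SD, n = 3 each) and was not called, nor were COL16A1 and COL23A1 (edgeR adjusted p = 0.573, 0.177 and 0.223). Of 31 chains that did not pass the filter, COL13A1 had 56 counts and COL25A1 44 in CQ, against none and 2 in LPM, each with 1 CQ library at 0 counts. Beside COL12A1, the fibroblast marker THY1 rose from 8.71 ± 1.13 to 283 ± 26 CPM and the actin-binding TAGLN from 2.11 ± 0.482 to 172 ± 33.1 CPM (SD, n = 3 each; edgeR adjusted p = 1.12e-07 and 2.42e-07). The fibroblast markers DCN, LUM and DPT had no count in any of the 6 libraries, which is likewise given as listed. In both media 6 of 8 fibroblast markers averaged under 1 CPM. The remaining marker beside THY1, FBLN1, fell from 36.9 to 7.41 CPM (edgeR adjusted p = 2.1e-05). Summed fibroblast markers were 42.7 to 50.5 CPM in LPM and 264.6 to 314 in CQ, and without THY1 33.4 to 41.2 and 7.14 to 9.01. Pericyte and smooth muscle markers summed to 64.6 to 94.9 CPM in LPM and 214 to 285 in CQ, and without TAGLN to 62.5 to 93.3 and 79.6 to 88.3, so the rise of each sum lay in THY1 and TAGLN. The part of these genes in the COL12A1 level was not tested.

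Genes that process collagen were called in both directions in CQ, where 47.9% of all genes were called, 23.1% higher and 24.8% lower. Of 13 tested hydroxylases and glycosyltransferases 8 were lower and 1 higher (median log2 fold change -1.15, beside -0.07 over all genes). PLOD1 fell from 255 ± 7.05 to 6.09 ± 3.98 CPM and P4HA1 from 329.6 ± 15.4 to 57.6 ± 5.12 CPM, while PLOD3 rose 1.36-fold (SD, n = 3 each; edgeR adjusted p = 1.8e-05, 5.82e-07 and 0.0109). Of 7 chaperones and export factors 2 rose and 4 fell (median -0.48). CREB3L1 fell 5.75-fold and the prolyl isomerase PPIB 1.96-fold, and the export factors MIA3 and KLHL12 rose 1.42-fold and 1.31-fold (edgeR adjusted p = 1.56e-05, 0.000429, 0.0152 and 0.0197). SERPINH1 was listed at 0 in all 6 libraries. Of 7 proteinases and crosslinking enzymes, with a median of -0.65, 2 were called higher, BMP1 and TLL1, and 3 lower. BMP1 rose 1.48-fold (edgeR adjusted p = 0.00583). TLL1 averaged 0.403 CPM in LPM and 2.54 in CQ, and LOXL2, among the 3, 18.1 ± 2.2 and 0.497 ± 0.452 CPM (SD, n = 3 each). TLL1 passed the filter through CQ alone and LOXL2 through LPM alone, so nothing is read from their calls. ADAMTS3, also among the 3, averaged 2.07 CPM in LPM, had no count in CQ and passed the filter through LPM alone, so nothing is read from its call.

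The counts that follow stand beside 23.1% of all genes called higher in CQ and 24.8% lower. Of 7 tested receptors edgeR called none higher and 5 lower, with a median log2 fold change of -1.71. DDR2, a receptor for fibrillar collagen, averaged 10.3 CPM in LPM and 1.44 in CQ. It passed the filter through LPM alone, so nothing is read from its call (7.1-fold lower, edgeR adjusted p = 0.00209). Of the 5, MRC2 averaged 2.58 ± 0.0485 CPM (SD, n = 3) and ITGA1 1.28 CPM in LPM, and both had no count in CQ and passed the filter through LPM alone, so nothing is read from their calls. At an unadjusted p under 0.05 the count of risen receptors was also 0. The partners of collagens XVII and VII moved in both directions, 4 of 8 higher and 2 lower (median 0.21). The tetraspanin CD151 rose 5.85-fold to 279 ± 7.46 CPM (SD, n = 3) and LAMA3 2.33-fold to 262 ± 12 CPM (SD, n = 3), whereas the integrin chains of the hemidesmosome fell, ITGA6 3.09-fold and ITGB4 1.46-fold (edgeR adjusted p = 6.46e-07, 0.000209, 1.78e-05 and 0.00455). Of 6 other basement membrane components 3 rose and 2 fell (median 0.41). The laminin chains LAMC1 and LAMA5 rose 3.23-fold and 2.74-fold, and the proteoglycans AGRN and HSPG2 fell 3.26-fold and 3.05-fold (edgeR adjusted p = 3.72e-05, 6.17e-05, 1.87e-05 and 0.00127).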

How the data were processed

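RNA sequencing libraries from pig foliate papillae and organoids were used as deposited. The deposited values are raw counts: featureCounts assigned read pairs to genes, in version 2.0.3 for 16 libraries (27376 genes) and in version 2.0.6 for the CQ experiment's 6 (29850 named genes), with multi-overlapping pairs counted for each gene, multimapping pairs not counted and no strand option, per the file headers. STAR 2.7.10b, FastQC 0.11.9, MultiQC 1.14 and DESeq2 are named in the submitters' processing notes. Gene positions are those of the file headers and match Sscrofa11.1. An entry without a gene name, 0.326 to 0.477% of the counts of the CQ experiment, was left out. The sources used here do not give library strandedness, so overlapping and antisense genes cannot be told apart.

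Each comparison was fitted alone across all genes with edgeR 4.0.16 in R 4.3.3 (filterByExpr, TMM scaling, quasi-likelihood test, p adjusted by Benjamini-Hochberg across all tested genes, threshold 0.05). CPM are TMM-scaled within a comparison, and levels per kilobase divide by the exon length in the file. Alternatives were DESeq2 1.42.0, other scalings, no low-count filter, a replicate block, other limits for a kept chain and each library left out. Named were the chains with a mean of 1 CPM in any group or a call, and up to 2 called genes per direction, by smallest p, of each processing or partner list. The values of 1 gene of the partner list are not reported here. The members and lists were chosen with earlier results of these data known. Papillae and organoids of a number come from the same pig by the labels, with same-pig correlations of deviations of 0.034 to 0.090, and the block changed the call of none of the 40 chains tested there. Of the marker lists in organoids against papillae, called higher and lower were 5 and 3 of 8 epithelial genes, 0 and 7 of 8 fibroblast, 0 and 8 of 8 pericyte and smooth muscle, 0 and 7 of 8 endothelial, 0 and 8 of 8 Schwann cell and nerve, 0 and 7 of 7 skeletal muscle, 1 and 6 of 8 immune and 0 and 2 of 2 cartilage genes. On simulated counts with 100 genes changed at each size, the test recovered 36%, 98% and 61% of genes changed by a log2 of 1, and 86%, 100% and 81% of those changed by 2, in the papilla comparison (16311 genes), the FGF10 comparison (14262) and the CQ comparison (13827). The changed genes were drawn only from genes above a limit on the mean count, so recovery of chains with few counts was not measured. No promoter or protein sequence was used here.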

Additional observations from a re-analysis of the deposited data

Results flagged for a closer look

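A single library stood apart from the other 4 of its group in 4 of 58 chain and group pairs checked by Dixon's criterion, which chance alone gives in about 1 in 20. COL12A1 in the papilla of pig 1 was 118.1 CPM, against 67.1 to 71.5 in the other papillae. COL14A1 in the same papilla was 199.3 CPM, against 57.36 to 86.35. That papilla also had the highest summed fibroblast markers without THY1, 933 CPM against 382 to 612, and the part of this in the COL12A1 and COL14A1 levels was not tested. COL24A1 in the papilla of pig 2 was 46.4 CPM, against 4.892 to 15.45. COL14A1 in the passage 1 organoids of pig 5 was 23.52 CPM, against 2.337 to 6.817 in the other organoids.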

How the results depend on the processing

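Of 949 values of single chains under an alternative, 912 kept direction and call, 14 lost the call, 2 gained it and 21 turned direction. All 21 that turned were of chains without a call. Under library size alone COL4A5 in passage 1 organoids turned to 0.194 (log2) and COL8A1 to 0.171, and COL15A1 without FGF10 to 0.011. With no low-count filter COL5A2 without FGF10 turned to -0.002. With each library left out, the lowest and highest log2 values were -0.229 and 0.007 for COL4A5 and -0.754 and 0.164 for COL8A1 in passage 1 organoids, and without FGF10 -0.168 and 0.176 for COL5A2, -0.059 and 0.381 for COL9A1, -0.038 and 0.167 for COL12A1, -0.097 and 0.047 for COL15A1 and -0.018 and 0.187 for COL24A1. The replicate block lowered the chains called higher from 1 to 0 without FGF10 and from 2 to 1 in CQ. In CQ it also ended the calls of P3H3, TLL1, LOXL4 and ITGA10. With the pig as a block BMP1 (adjusted p = 0.0168) and LAMB1 (0.0425) became lower in passage 1 organoids. Same-numbered libraries in the FGF10 and CQ experiments did not deviate together (correlations -0.054 to 0.067 and -0.019 to 0.031), so the numbers were not taken as pairs. Leaving out libraries gave 0 to 1 higher without FGF10 and 1 to 3 higher in CQ. With no low-count filter 1 chain, COL8A1, was lower without FGF10. Of the 12 chains kept in passage 1 organoids 7 passed 5 CPM. The cause of these changes was not tested. Chains with few counts are imprecise, and 31 of 43 did not pass the filter in the CQ experiment.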
